A study of Mus musculus with 7 samples.

Results

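The dual-specificity MAP kinase phosphatases were examined in bulk RNA-seq of sorted Paneth cells (PCs), the granulated antimicrobial cells of the small intestinal crypt. The 10 genes were taken by symbol (Dusp1, Dusp2, Dusp4, Dusp5, Dusp6, Dusp7, Dusp8, Dusp10, Dusp14 and Dusp16) from a table of 55414 Ensembl gene identifiers, and all 10 were found. The samples were PCs of C57BL/6J mice, purified with a cell sorter 15 h after an injection of PBS (the control, 3 libraries) or of the inflammatory cytokine TNF (4 libraries). Each library came from a different mouse per the series description, and no transgene or other agent is named for either group. The cells came from the small intestine, and the sources used here do not give the age and sex of the mice, the TNF dose, the sorting antibodies or any batch. Libraries held 15511455 to 19193721 counts. Levels per library are given as CPM, the counts of a gene relative to a library size that was scaled with edgeR's TMM factors.

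MAP kinase phosphatases remove phosphate from the threonine and the tyrosine of the activation loop of ERK, JNK and p38 and so switch these kinases off. Many of their genes are themselves switched on by the kinases they act on, which makes them a negative feedback. Members differ in place and substrate, with inducible nuclear enzymes (Dusp1, Dusp2, Dusp4, Dusp5), cytoplasmic enzymes that prefer ERK (Dusp6, Dusp7) and enzymes that prefer JNK and p38 (Dusp8, Dusp10, Dusp16). Dusp14 encodes a small atypical member without the MAP kinase binding domain. TNF receptor signalling is known to activate JNK and p38 in many cell types.

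Of the 10 genes, 6 were higher after TNF, namely Dusp1, Dusp4, Dusp5, Dusp8, Dusp10 and Dusp16, with rises of 2.04-fold to 12.5-fold. The rises passed the threshold of an edgeR adjusted p under 0.05, which 59.6% of all 14329 tested genes passed in either direction and 29.5% passed as higher. The ERK phosphatase genes Dusp6 and Dusp7 and the low gene Dusp14 did not pass, and Dusp2 had too few counts for the test. By edgeR 0 members were lower, also at an unadjusted p under 0.05 and by DESeq2, where 30.1% of all tested genes were lower by edgeR. No member had every TNF library below every PBS library, a pattern seen in 30.9% of tested genes. The median log2 fold change was 1.06 over the 9 tested members and 0.0017 over all tested genes. In bulk samples, a change in the number of cells of a type and a change in RNA per cell cannot be told apart.

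**Figure D1:**
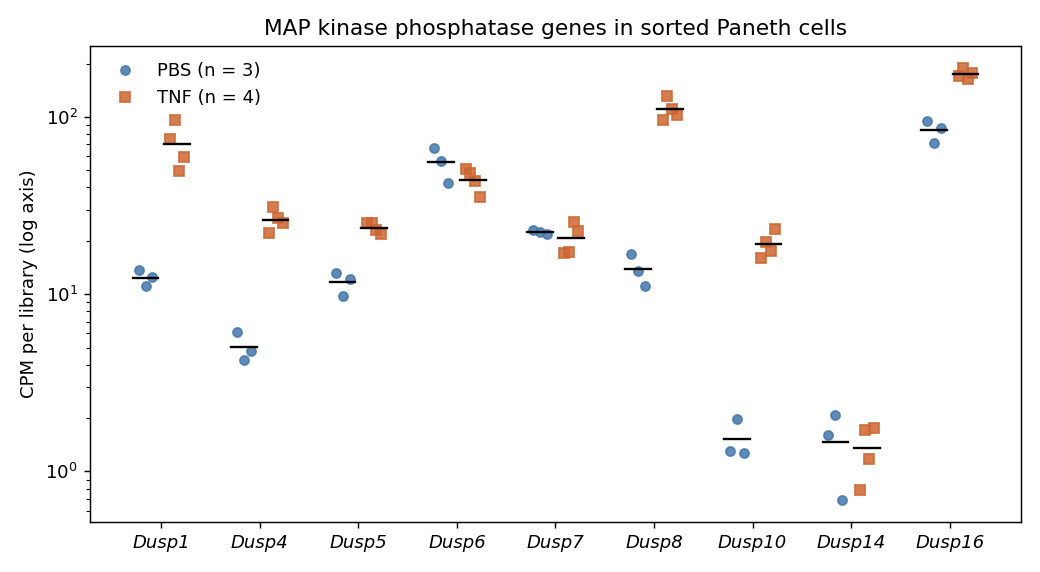
Level of each tested MAP kinase phosphatase gene (x axis) in every library, in CPM on a log axis, with circles for 3 PBS libraries, squares for 4 TNF libraries and a black bar at the mean. For Dusp1, Dusp4, Dusp5, Dusp8, Dusp10 and Dusp16 every TNF library lies above every PBS library, whereas the groups overlap for Dusp6, Dusp7 and Dusp14.

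The sequence before the transcription start was read for the members, and every stretch that holds a searched motif is shown. These stretches belong to Dusp1, Dusp5 and Dusp8, and a link to the rise of these genes was not tested. RefSeq promoter sequences (table built on GRCm38.p6) were found for 9 of 10 members, without Dusp4. Each stretch of 250 bases before the start matched GRCm39 exactly and at 1 place, and coordinates are those of GRCm39. The start is 1 RefSeq start per gene. For Dusp1, Dusp6, Dusp7, Dusp8, Dusp10, Dusp14 and Dusp16 the stretch lies inside the annotated gene span. Sequence before other annotated starts was not searched. The motifs were chosen after expression values had been seen and were searched on both strands. They were the cAMP response element (TGACGTCA), the AP-1 site (TGANTCA), an ETS site (CCGGAAGT), the CArG box of serum response factor and the NF-kB site. Capitals mark the match in each window of 30 bases, written 5′ to 3′ on the strand of the gene.
Dusp1, cAMP response element, chr17:26727571-26727600, minus strand: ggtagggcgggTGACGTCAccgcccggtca
Dusp8, cAMP response element, chr7:141649110-141649139, minus strand: gcccgctccgcTGACGTCAcctgcccccga
Dusp8, cAMP response element, chr7:141649066-141649095, minus strand: ttggctgcaggTGACGTCAggggctttttc
Dusp5, CArG boxes, chr19:53517489-53517518, plus strand: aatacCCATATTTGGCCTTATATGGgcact
Dusp1 held 1 cAMP response element, which began 143 bases before the start, and Dusp8 held 2, which began 107 and 63 bases before it. Of 32851 promoters of the same length, 1.55% held this motif. Dusp5 held 2 adjoining CArG boxes, from 82 to 63 bases before the start, where 1.47% of promoters held at least 1. The other 6 members with a sequence (Dusp2, Dusp6, Dusp7, Dusp10, Dusp14 and Dusp16) held none of the 5 motifs in this stretch, and no member held the AP-1 site, the NF-kB site or the ETS site, which 6.75%, 3.9% and 2.88% of promoters held. The printed windows lie outside the annotated exons of Dusp1, Dusp5 and Dusp8, but the Dusp1 window, the first Dusp8 window and the Dusp5 window fall in exons of antisense transcripts (Gm56886, Gm32786 and Gm50394). A match in the letters is a description and not a binding site.

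Among the inducible nuclear enzymes, Dusp1 (ENSMUSG00000024190, GRCm39 chromosome 17, 26724564 to 26781102), which encodes a phosphatase of p38 and JNK, rose strongly. It had 13.7, 11.05 and 12.5 CPM in the PBS libraries and 74.9, 96.5, 49.2 and 59.2 CPM in the TNF libraries. The lowest TNF library was above the highest PBS library, as for 29.9% of all tested genes, but the TNF libraries themselves spread more than those of any other member that rose (coefficient of variation 29.5%). The log2 fold change of Dusp1 was 2.50 ± 0.22 (SE, n = 3 and 4, edgeR adjusted p = 1.13e-06), a 5.65-fold rise. The annotated gene reaches far past the usual transcript and shares 38 exon bases with Ergic1 on the other strand, which had a log2 fold change of -0.65 (edgeR adjusted p = 0.00431).

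Dusp4 (ENSMUSG00000031530, chromosome 8, 35274442 to 35287048), a nuclear enzyme that is induced by ERK signalling in many cells, rose by a similar factor from a lower level. The PBS libraries had 6.12, 4.22 and 4.77 CPM, and the TNF libraries had 22.1, 31.1, 26.7 and 25.3 CPM. The groups did not overlap. The log2 fold change was 2.39 ± 0.18 with its SE, or 5.24-fold (edgeR adjusted p = 1.05e-07).

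Dusp5 (ENSMUSG00000034765, chromosome 19, 53517532 to 53530862), the nuclear phosphatase with a preference for ERK whose CArG boxes are shown above, rose less. It had 13.1, 9.77 and 12.1 CPM after PBS and 25.2, 25.1, 22.9 and 21.8 CPM after TNF. The 4 TNF libraries lay close together (coefficient of variation 7.17%) and above all PBS libraries. The log2 fold change was 1.03 ± 0.15 (SE, edgeR adjusted p = 3.79e-05).

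The last of the inducible nuclear enzymes, Dusp2 (ENSMUSG00000027368, chromosome 2), is known mainly from lymphocytes. Only PBS replicate 1 (3 counts) and TNF replicate 4 (4 counts) held any read of it. At this level no difference was detectable, and Dusp2 was not tested.

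The enzymes that prefer JNK and p38 all rose. Dusp10 (ENSMUSG00000039384, chromosome 1, 183745499 to 183807842), which acts on p38 and JNK, had the strongest rise of the family. Its PBS libraries had 1.298, 1.99 and 1.27 CPM, from 84 counts in all, and its TNF libraries had 16.01, 19.7, 17.5 and 23.4 CPM. The log2 fold change was 3.64 ± 0.24 (SE, edgeR adjusted p = 2.29e-08), a 12.5-fold rise that 1.93% of all tested genes exceeded. Exons of 1700056E22Rik on the other strand share 808 bases with Dusp10, and this gene had 104 counts over all libraries. Its part in the Dusp10 counts was not tested.

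Dusp8 (ENSMUSG00000037887, chromosome 7, 141633226 to 141649580), a JNK and p38 phosphatase best known from brain and heart, combined a strong rise with a high final level. It had 16.9, 13.6 and 11.2 CPM after PBS and 95.6, 131.7, 111 and 102 CPM after TNF. Every TNF library held more than 5 times the CPM of the highest PBS library. The log2 fold change was 2.99 ± 0.16 (SE, edgeR adjusted p = 4.62e-09), or 7.94-fold, which 2.67% of tested genes exceeded.

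Dusp16 (ENSMUSG00000030203, chromosome 6, 134692431 to 134784241), which encodes a JNK phosphatase that shuttles between nucleus and cytoplasm, was already well expressed in control PCs. The PBS libraries had 94.4, 71.0 and 86.4 CPM and the TNF libraries 170, 190, 164 and 178 CPM. All TNF libraries were above all PBS libraries, and the log2 fold change was 1.06 ± 0.12 (SE, edgeR adjusted p = 3.19e-06), a 2.09-fold rise. The 4 strongest rises (Dusp10, Dusp8, Dusp1 and Dusp4) each were of at least 4-fold, which 5.4% of all tested genes reached as called rises.

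**Figure D2:**
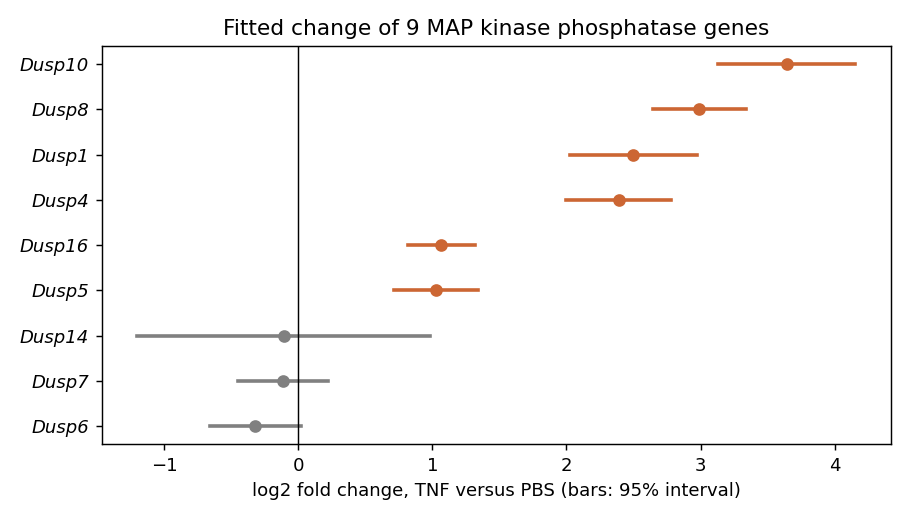
Fitted log2 fold change, TNF versus PBS (x axis), of the 9 tested genes, with bars for the 95% interval and colour for an edgeR adjusted p under 0.05. The intervals of Dusp10, Dusp8, Dusp1 and Dusp4 lie above those of Dusp16 and Dusp5, and those of Dusp14, Dusp7 and Dusp6 include 0.

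Dusp6 and Dusp7, the cytoplasmic ERK phosphatases among the 10 genes, did not pass the test. Dusp6 (ENSMUSG00000019960, chromosome 10, 99086564 to 99103361), a feedback inhibitor of growth factor signalling through ERK, had 66.8, 56.6 and 42.6 CPM after PBS and 50.5, 48.0, 43.2 and 35.1 CPM after TNF. The ranges overlapped, and the log2 fold change of -0.32 did not pass the test (95% interval -0.66 to 0.02, edgeR adjusted p = 0.095). Dusp6 passed as lower when PBS replicate 3 (-0.48) or TNF replicate 1 (-0.39) was left out. It also passed without the filter on low counts (-0.32, edgeR adjusted p = 0.0311, range over 14 alternatives 0.0114 to 0.429).

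Dusp7 (ENSMUSG00000053716, chromosome 9, 106245143 to 106252923), the close relative of Dusp6, had 23.1, 22.4 and 21.8 CPM after PBS and 17.1, 17.4, 25.5 and 22.8 CPM after TNF. The TNF libraries lay on both sides of the PBS libraries, with a log2 fold change of -0.11 (95% interval -0.45 to 0.22, edgeR adjusted p = 0.549). For Dusp14 (ENSMUSG00000018648, chromosome 11, 83938521 to 83960087), the 80 counts after PBS and 92 after TNF gave 1.61, 2.09 and 0.689 CPM in the PBS libraries and 0.784, 1.71, 1.18 and 1.77 CPM in the TNF libraries. The groups overlapped, and the log2 fold change of Dusp14 was -0.11 (95% interval -1.20 to 0.98, edgeR adjusted p = 0.867), an interval that includes changes of about 2-fold in either direction.

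To compare levels between genes, CPM was divided by the length of the canonical transcript. After PBS, Dusp6 had the highest level per length with 19.5 ± 4.28 CPM per kb (SD, n = 3), followed by Dusp16 with 16.1 ± 2.28, and the ranges of these neighbours overlapped. Next came Dusp1 (6.23 ± 0.658) and Dusp7 (5.75 ± 0.162), which overlapped as well, then Dusp5 (4.71 ± 0.691), Dusp8 (2.87 ± 0.595) and Dusp4 (1.83 ± 0.355). Dusp14 (0.477 ± 0.232) and Dusp10 (0.433 ± 0.115) overlapped near the bottom, above Dusp2. With the summed length of all exons in place of the canonical transcript, Dusp16 (9.49) no longer overlapped Dusp6 (16.3). Dusp1 (3.73) then came below Dusp7 (5.48) and, with overlapping ranges, Dusp5 (4.71), and Dusp4 (1.75) and Dusp8 (1.70) overlapped in the other order.

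After TNF the order of levels was another one. Dusp1 had 35.2 ± 10.4 CPM per kb (SD, n = 4) and Dusp16 had 33.6 ± 2.12, with overlapping ranges. Dusp8 followed with 22.7 ± 3.24 CPM per kb and lay above Dusp6 (15.6 ± 2.39) in every TNF library, whereas it lay below Dusp6 in every PBS library. With the summed length of all exons, Dusp8 had 13.5 CPM per kb and its TNF range overlapped that of Dusp6 (13.04), and the levels of Dusp1, Dusp16 and Dusp10 were 21.05, 19.9 and 3.15 CPM per kb. Dusp5 (9.57 ± 0.686) and Dusp4 (9.57 ± 1.37) had about the same level, and Dusp10 (5.46 ± 0.918) overlapped Dusp7 (5.31 ± 1.06). Dusp14 had 0.443 ± 0.152 CPM per kb.

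Summed over the 10 genes, the level was 57.9 ± 7.39 CPM per kb (SD, n = 3) after PBS and 138 ± 16.2 CPM per kb (SD, n = 4) after TNF. Dusp6 held 33.5% ± 4.48 of this sum after PBS (28.4% to 36.7%) and 11.4% ± 1.6 after TNF (9.65% to 13.2%). Dusp1 held 10.8% ± 0.896 and 25.2% ± 4.67, and Dusp8 held 4.92% ± 0.494 and 16.5% ± 1.53. The share of Dusp16 was 27.8% ± 3.17 and 24.6% ± 1.66, with overlapping ranges. These shares describe the make-up of the transcripts and were not tested.

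**Figure D3:**
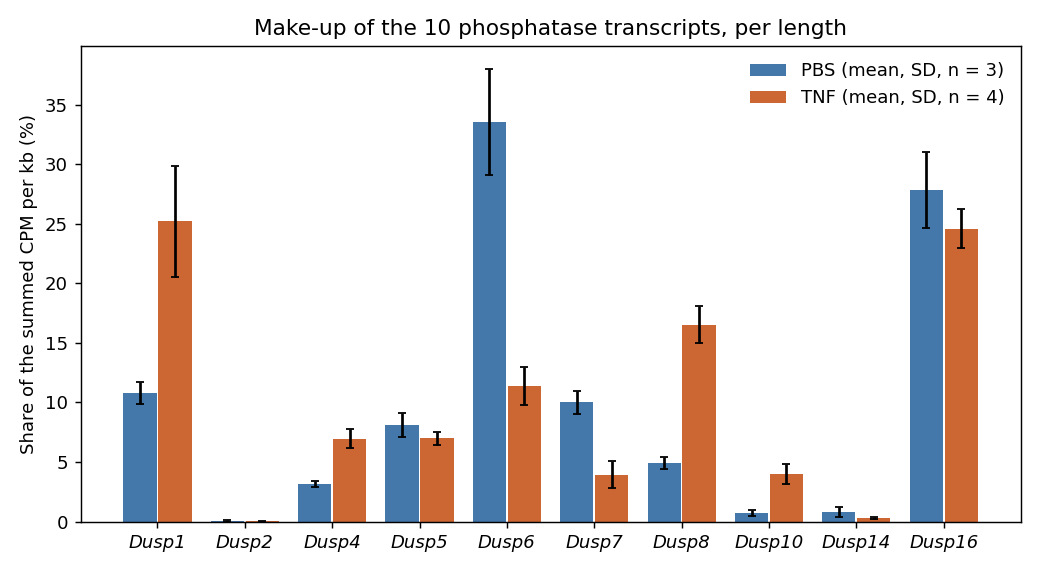
Share of each gene in the summed CPM per kb of the 10 phosphatase genes (y axis, percent), with bars for the mean of 3 PBS or 4 TNF libraries and error bars for the SD. Dusp6 has the largest mean share after PBS (33.5%), and Dusp1 (25.2%) and Dusp16 (24.6%) have the largest after TNF.

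The rest of the MAP kinase pathway was described with 7 gene lists of 72 genes, of which 64 were tested, 33 were higher and 13 lower after TNF by edgeR. Levels of these genes are means ± SD, and log2 changes are given ± SE. Over all tested genes, 29.5% were higher and 30.1% lower, and the counts of the ERK cascade lie below these shares and those of the other dual-specificity phosphatases close to them. In the p38 cascade (10 of 10 genes tested), 7 genes were higher and 3 lower, with a median log2 fold change of 1.14. Mapk11, which encodes p38 beta, rose from 0.463 ± 0.0816 to 20.8 ± 1.53 CPM (fitted log2 change 5.48 ± 0.23, edgeR adjusted p = 4.31e-10). Map2k6, an activating kinase of p38, fell from 58.6 ± 12 to 4.65 ± 0.717 CPM (-3.65 ± 0.17, edgeR adjusted p = 8.51e-10), whereas the other p38 activator Map2k3 rose from 48.1 ± 3.82 to 112 ± 5.84 CPM (1.22 ± 0.10, edgeR adjusted p = 2.63e-07). Of the other genes for p38 kinases, Mapk12 rose from 2.25 ± 0.655 to 5.42 ± 0.911 CPM (1.26 ± 0.30, edgeR adjusted p = 0.00248). Mapk13 rose from 98.0 ± 3.18 to 178 ± 23.0 CPM (0.86 ± 0.12, edgeR adjusted p = 2.26e-05). Mapk14 fell from 53.1 ± 4.25 to 37.6 ± 3.12 CPM (-0.50 ± 0.11, edgeR adjusted p = 0.0013). Map2k3, Mapk12, Mapk13 and Mapk14 were chosen after their values were seen.

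In the JNK cascade, 1 of 6 tested genes was higher and 0 were lower by edgeR, at an unadjusted p under 0.05 these were 2 and 0, and by DESeq2 1 and 0. The JNK counts became 2 higher and 1 lower without PBS replicate 3, and 2 genes were higher without TNF replicate 4 or with the replicate block. Mapk8, which encodes JNK1, rose from 24.4 ± 0.957 to 55.7 ± 4.03 CPM (fitted log2 change 1.19 ± 0.11, edgeR adjusted p = 6.2e-07). In the ERK cascade, 2 of 10 genes were higher and 2 lower, with a median log2 fold change of 0.11. The number of higher ERK cascade genes was 0 with scaling by total counts and 1 with the replicate block. Mapk3, which encodes ERK1, fell from 190 ± 40 to 117 ± 12.8 CPM (-0.70 ± 0.14, edgeR adjusted p = 0.00075), and Map2k2, an activating kinase of ERK, rose from 61.7 ± 1.19 to 85.4 ± 14.6 CPM (0.47 ± 0.13, edgeR adjusted p = 0.00544). The call for Map2k2 was lost with scaling by total counts (0.30, edgeR adjusted p = 0.148, range over 14 alternatives 0.000609 to 0.148).

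Of the 11 MAP3 kinases and TAB adaptors, which act above these cascades, 7 were higher and 3 lower (median 0.31). The 7 higher genes became 4 without PBS replicate 1 or PBS replicate 3, 4 with the replicate block and 3 with scaling by total counts. Map3k8, an activator of the ERK cascade downstream of TNF receptors, rose from 2.71 ± 0.398 to 11.4 ± 1.41 CPM (fitted log2 change 2.07 ± 0.22, edgeR adjusted p = 2.38e-06). Tab1, an adaptor of the kinase TAK1, fell from 35.1 ± 2.48 to 13.8 ± 2.75 CPM (-1.35 ± 0.15, edgeR adjusted p = 4.18e-06).

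Among 11 tested genes known to respond to ERK, 9 were higher and 1 was lower, with a median of 1.07 that was the same with Fosl1 at its lower bound. The 9 higher genes became 6 with scaling by total counts. Fosl1, an AP-1 subunit, had 0 counts in the PBS group and 427 counts in the TNF group and was at least 113-fold higher, against a floor of 3 counts over the PBS group (edgeR adjusted p = 4.76e-07). Etv5, an ETS factor, fell from 13.4 ± 3.15 to 2.88 ± 1.1 CPM (fitted log2 change -2.21 ± 0.28, edgeR adjusted p = 1.42e-05), although its relative Etv4 rose from 3.66 ± 1.01 to 15.4 ± 3.79 CPM (2.07 ± 0.25, edgeR adjusted p = 9.35e-06). The feedback inhibitor Spry4 rose from 0.379 ± 0.223 to 9.28 ± 1.31 CPM (4.58 ± 0.36, edgeR adjusted p = 1.4e-07). Etv4 and Spry4 were chosen after their values were seen.

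Of 10 tested dual-specificity phosphatase genes outside the family described here, 4 were higher and 3 lower, with a median log2 fold change of 0.20. The 4 higher genes became 1 without TNF replicate 1, 2 without any other single library and 1 with the replicate block. Dusp19, a small atypical member, fell from 5.45 ± 0.523 to 1.19 ± 0.414 CPM (-2.19 ± 0.34, edgeR adjusted p = 7.85e-05). Dusp9, the remaining cytoplasmic ERK phosphatase, had 0.304 ± 0.112 and 1.15 ± 0.721 CPM (1.89 ± 0.68, edgeR adjusted p = 0.0283). Leaving out PBS replicate 1 (1.65), PBS replicate 2 (2.15) or PBS replicate 3 (1.90), scaling by total counts (1.75) or the replicate block (2.00) ended the call (edgeR adjusted p 0.0171 to 0.0993 over 10 alternatives), and it was too low to be tested without TNF replicate 1, 2 or 3. Of 6 other phosphatases that act on MAP kinases, 3 were higher and 1 lower. Ppp2cb, a catalytic subunit of protein phosphatase 2A, rose from 47.5 ± 9.19 to 106 ± 10.9 CPM (1.16 ± 0.14, edgeR adjusted p = 6.39e-06), and Ppm1d fell from 11.8 ± 0.682 to 7.47 ± 1.97 CPM (-0.66 ± 0.21, edgeR adjusted p = 0.0145).

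**Figure D4:**
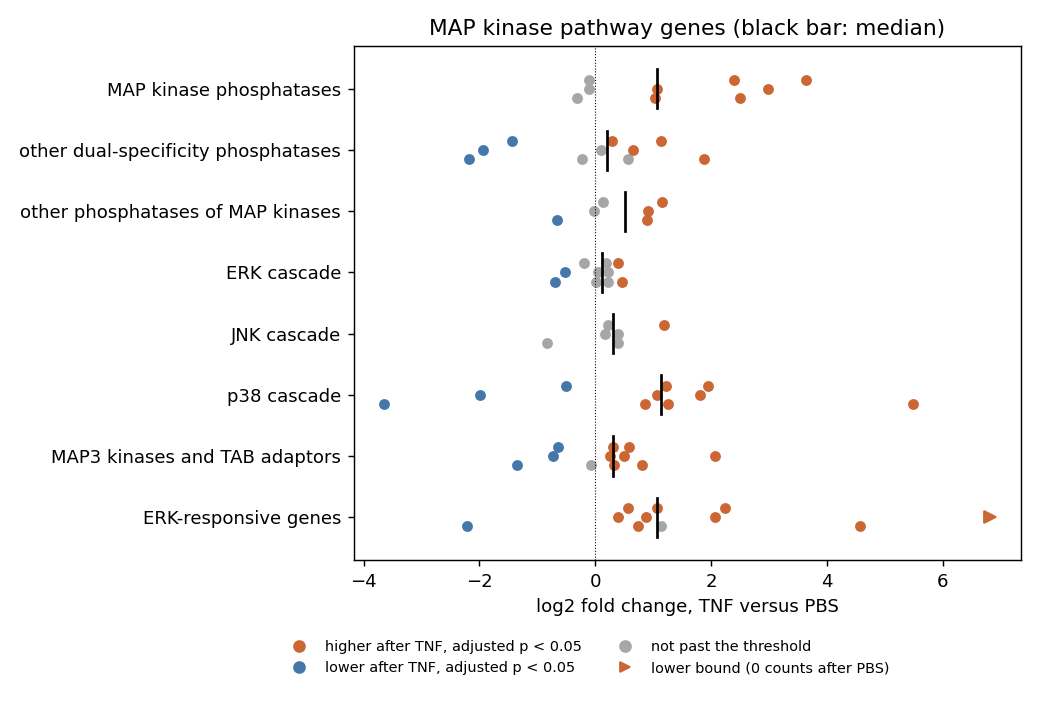
Log2 fold change, TNF versus PBS (x axis), of each tested gene in the MAP kinase phosphatase family and the 7 pathway lists, coloured by the edgeR call at an adjusted p under 0.05, with a black bar at the median of each list. The triangle is the lower bound of Fosl1. The p38 list holds 7 genes that were higher and 3 that were lower, and the ERK list has its median close to 0.

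The genes most like 2 members across the 7 libraries were found by Pearson correlation of log2 CPM over 8430 genes. For Dusp16, the member with the highest mean CPM, these were Crybg2, Ido1 and Ptpn3 (r = 0.999, 0.998 and 0.997), and for Dusp10, the member with the largest change, Parp9, Ube2j2 and Rbm22 (r = 0.999, 0.998 and 0.998). The libraries fall into the same 2 groups for every gene, and 1193 and 1688 genes had r above 0.95 with Dusp16 and Dusp10. The likeness is one of shape and not of size, since the log2 fold change was 6.37 for Ido1 and 1.06 for Dusp16.

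The sorted cells were checked against cell markers. The PC gene Lyz1 had a mean of 96515 CPM with an SD of 17916 in the 3 PBS libraries and of 118731 CPM with an SD of 28082 in the 4 TNF libraries, a difference that did not pass the test (edgeR adjusted p = 0.444). All 10 PC markers were tested. Higher were Defa22 (fitted log2 change 1.76 ± 0.33) and Mmp7 (0.88 ± 0.21), and lower were Clps (-2.27 ± 0.43), Kit (-1.68 ± 0.11) and Cd24a (-0.46 ± 0.17). Markers of other cells moved with the groups: 8 of 8 tuft cell markers were lower, and their summed level was 1567 to 2621 CPM after PBS and 326 to 806 CPM after TNF. Over all tested genes 30.1% were lower. Lower were also 7 of 8 tested stem cell markers, 5 of 8 tested goblet cell markers (1 higher) and 4 of 6 enterocyte markers (1 higher). The summed levels were 3597 to 4925 and 2035 to 2798 CPM for stem cells, 7601 to 14347 and 6853 to 7455 CPM for goblet cells and 156.5 to 234 and 56.1 to 71.5 CPM for enterocytes. Of 8 enteroendocrine markers 3 were lower, near the share over all genes, and their summed levels of 29.9 to 99.6 CPM after PBS and 23.5 to 32.5 CPM after TNF overlapped. Leukocyte markers summed to 24.8 to 31.97 CPM after PBS and 19.1 to 28.6 CPM after TNF (1 of 4 tested higher, 1 lower), with Cd3e at 0 counts in all libraries. Within this sum the neutrophil gene S100a9 rose from 0 counts in every PBS library to 103, 116, 60 and 120 counts in the TNF libraries, at least 106-fold against the floor of 3 counts over the PBS group (edgeR adjusted p = 1.14e-06). Its partner S100a8 had 0 counts after PBS and 10, 13, 4 and 5 after TNF and was too low to be tested, and Ptprc, the pan-leukocyte gene, fell from 16.4 ± 8.52 to 8.50 ± 2.9 CPM (-0.95 ± 0.33, edgeR adjusted p = 0.027). The 8 stromal and endothelial markers summed to at most 0.371 and 0.448 CPM, and 2 of them (Col1a2 and Kdr) were at 0. The part of these markers in the phosphatase changes was not tested.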

How the data were processed

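Total RNA of sorted PCs was sequenced single-end (Element AVITI). The authors deposited raw counts, whole numbers of reads per Ensembl gene with 1 column per library (15511455 to 19193721 counts in all). Their processing notes name FastQC, Trimmomatic 0.39, STAR 2.7.10a, DESeq2 and the builds mm10 and mm39. No counting program, annotation or strand use is given in the sources used here, so reads of overlapping antisense genes cannot be told apart. The paper read for style does not describe this experiment.

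Symbols, coordinates and lengths came from GENCODE M39 (GRCm39), which held 98.8% of identifiers. The test was edgeR's quasi-likelihood test (edgeR 4.0.16, R 4.3.3, robust, two-sided, filterByExpr, TMM, 14329 genes, Benjamini-Hochberg adjustment over all), TNF against PBS over all 7 libraries without covariates. SE came from the change and the F statistic. Alternatives included DESeq2 1.42.0, other scalings and filters, and leaving out each library. The fits were run on simulated counts with known changes, where the share of false calls was above 0.05 in every fit and highest with DESeq2. The simulation changed far fewer genes than the 59.6% called in these data. The share of false calls in these data was not measured. No library was a copy of another (within groups, chi-square per degree of freedom at least 16.4). The floor of 3 counts covers counting error only.

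The members, lists and tests were chosen with earlier results of these data known. Named were all members, from each pathway list the called gene with the largest rise and fall, and the 3 genes of at least 10 CPM most correlated with 2 members.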

Additional observations from a re-analysis of the deposited data

How the results depend on the processing

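The 6 phosphatase genes that rose were called in each of the 15 alternatives, with log2 fold changes of 3.47 to 3.89 for Dusp10, 2.84 to 3.15 for Dusp8, 2.31 to 2.62 for Dusp1, 2.23 to 2.55 for Dusp4, 0.90 to 1.16 for Dusp16 and 0.87 to 1.12 for Dusp5. The number of members called lower was 0, but 1 (Dusp6) without the filter on low counts and 0 to 1 when a library was left out, and the cause was not tested. Dusp14 turned its sign without PBS replicate 2 (0.25) and TNF replicate 1 (0.08), with values of -0.45 to 0.25. With scaling by total counts, the median over all genes was -0.16 in place of 0.0017 on the log2 scale, and 3142 genes were higher and 4614 lower, against 4229 and 4314. Pathway counts moved by over 1.5 times for the other dual-specificity phosphatases (4 higher, or 0 to 5), the other phosphatases of MAP kinases (1 lower, or 0), the ERK cascade (2 higher, or 0 to 2), the JNK cascade (1 higher, or 1 to 3, and 0 lower, or 0 to 1) and the MAP3 kinases (7 higher, or 3 to 7), whereas the p38 counts were 7 and 3 throughout. The labels share replicate numbers. Deviations of same-numbered libraries correlated at -0.30, -0.03 and -0.17, and 0 of 3 PBS libraries correlated best with their own number. With so few libraries this check cannot decide whether the numbers pair the samples. With the replicate number as a block, 6 members were higher and 0 lower, and the call for Dusp9 was lost (edgeR adjusted p = 0.068). After the data were seen, levels per length were also taken with the summed length of all exons, which put Dusp7 above Dusp10 after TNF, made the ranges of Dusp8 and Dusp6 overlap, parted those of Dusp6 and Dusp16 after PBS, moved Dusp1 below Dusp7 and Dusp5 after PBS, and lowered the values of Dusp1, Dusp8, Dusp10, Dusp14 and Dusp16 by over 1.5 times. Dusp2, which had 3 and 4 counts in the groups, was too low to be tested.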
